A study of Mus musculus with 9 samples.

Results

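The 6 genes named for CCAAT/enhancer-binding proteins (C/EBP), *Cebpa*, *Cebpb*, *Cebpd*, *Cebpe*, *Cebpg* and *Cebpz*, were followed across 3 mouse myeloid cell lines. They were taken by their symbols from a table of 54347 genes, and all 6 passed the filter on low counts. C/EBP proteins are transcription factors of the basic leucine zipper (bZIP) class: a basic region reads DNA, and a zipper of regularly spaced leucines pairs the protein with another bZIP protein. C/EBPα is needed to form granulocyte and monocyte progenitors and C/EBPε to finish granulocyte maturation, whereas C/EBPβ and C/EBPδ are known from emergency granulopoiesis and inflammation. C/EBPγ lacks a strong activation domain of its own and pairs with other factors, among them ATF4 in the amino acid stress response, and C/EBPZ shares the name through binding to CCAAT sequences but belongs to another class of protein.

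Messenger RNA of each line was sequenced in 3 libraries. Hox-WT and Hox-URE were made from c-Kit+ bone marrow progenitors of a wild-type and of a UREd/d mouse, immortalized with a Hoxb8 protein that is active in the presence of estradiol, and URE-AML is an AML blast-like line, labelled B22, from a UREd/d mouse that had developed leukemia. UREd/d cells lack the upstream regulatory element, an enhancer of *Spi1*, which encodes the transcription factor PU.1. All 3 lines were labelled as grown with IL-3, IL-6, SCF and β-estradiol, the last also given to URE-AML. Each genotype and stage is 1 line, so that genotype, leukemic stage and line cannot be told apart, and nothing says that the libraries of a line were separate cultures, so that the p-values cover only the spread between libraries, which may be technical.

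Total counts were 20331064 to 28588718 per library, and 3 counts, the limit that a count of 0 allows, corresponded to 0.104 to 0.153 CPM (counts scaled by library size and TMM factor), which covers counting error only. *Spi1* stood at 2932, 2832 and 2791 counts in Hox-WT, at 1, 1 and 0 in Hox-URE and at 62, 116 and 148 in URE-AML, at least 795-fold lower in Hox-URE relative to Hox-WT. The labelled identity was checked with marker lists. The summed level of 5 progenitor markers was 5150 to 8170 CPM in Hox-WT, 841 to 1320 CPM in Hox-URE, and 4740 to 11000 CPM in URE-AML. In URE-AML most of it was *Elane*, the 1 marker called higher there relative to Hox-WT, while the other 4 were called lower, and in Hox-URE all 5 were lower. No marker was at 0 throughout a line, but *Cd34* had 1, 0 and 0 counts in the URE-AML libraries. The sum over 5 neutrophil markers was 37.5 to 53.6, 8.43 to 9.66 and 2340 to 3340 CPM, in the same order, with *Ly6g* at 0 in Hox-WT. *S100a8* alone made up 29.6 to 48.7 CPM of it in Hox-WT and 2300 to 3310 CPM in URE-AML, and *Cxcr2* 7.0 to 9.32 CPM in Hox-URE, against 4.70 to 7.61 CPM in Hox-WT. The sum over 6 basophil and mast cell markers was 483 to 838, 1610 to 5890 and 31.4 to 62.7 CPM, with *Fcer1a* at 0 in both Hox lines. In such bulk samples, fewer cells of a type and less RNA per cell cannot be told apart.

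The bZIP stretch is what makes 5 of the 6 genes a family and also what could let their reads be confused, so its coding sequence is shown here. Each line gives 171 bases (57 codons) of the coding strand, from the GENCODE M21 transcripts on GRCm38, with the 62 bases that are identical in all 5 genes in capitals.
Cebpa: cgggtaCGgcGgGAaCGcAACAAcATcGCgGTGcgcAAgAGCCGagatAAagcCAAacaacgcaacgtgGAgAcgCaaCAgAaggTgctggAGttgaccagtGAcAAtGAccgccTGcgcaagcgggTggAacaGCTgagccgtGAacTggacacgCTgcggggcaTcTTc
Cebpb: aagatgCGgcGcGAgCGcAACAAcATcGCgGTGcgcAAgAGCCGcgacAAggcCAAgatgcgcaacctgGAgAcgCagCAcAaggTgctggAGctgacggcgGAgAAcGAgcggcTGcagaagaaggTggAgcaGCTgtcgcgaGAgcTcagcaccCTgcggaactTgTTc
Cebpd: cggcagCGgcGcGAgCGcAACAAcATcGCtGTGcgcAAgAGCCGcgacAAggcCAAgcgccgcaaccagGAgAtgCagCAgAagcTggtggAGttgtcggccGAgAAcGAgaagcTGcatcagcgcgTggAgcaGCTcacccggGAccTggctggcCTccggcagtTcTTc
Cebpe: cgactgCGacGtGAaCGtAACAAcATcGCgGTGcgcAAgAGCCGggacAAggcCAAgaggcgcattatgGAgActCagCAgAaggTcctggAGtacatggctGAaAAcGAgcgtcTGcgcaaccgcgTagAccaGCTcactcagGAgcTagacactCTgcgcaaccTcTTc
Cebpg: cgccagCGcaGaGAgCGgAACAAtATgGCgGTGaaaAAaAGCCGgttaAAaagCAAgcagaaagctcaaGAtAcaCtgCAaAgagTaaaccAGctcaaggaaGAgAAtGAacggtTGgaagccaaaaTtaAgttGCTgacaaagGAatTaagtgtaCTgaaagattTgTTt
The stretch lies in the single exon of *Cebpa* (chr7:35120277-35120447, plus strand), *Cebpb* (chr2:167689697-167689867, plus) and *Cebpd* (chr16:15887907-15888077, plus), and in exon 2 of *Cebpe* (chr14:54710593-54710763, minus) and *Cebpg* (chr7:35050471-35050641, minus). Capitals were denser at the start, over the basic region, with 26 of the first 48 bases identical against 36 of the other 123. *Cebpb* and *Cebpd* were the most alike pair at 77.8% identical bases, *Cebpa* and *Cebpe* shared 73.7%, and *Cebpg* stood apart, at 46.8% to *Cebpa*. Read from codon 18, leucine codons filled 4 of 6 heptad positions in all but *Cebpe*, which had 3. No 31-base word of any member's transcripts occurred in another member's, so that the members' reads can be told apart at this word length. Of the words of *Cebpb* and *Cebpd*, 19.3% and 14.2% also occurred on the opposite strand, in the overlapping genes *Tmem189* and *Spidr*. The libraries were stranded, but the strand setting of the counting is not given in the sources used here.

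*Cebpe* separated the 3 lines most widely. It stood at 61.0, 55.9 and 43.9 CPM in Hox-WT, at 5.03, 6.71 and 6.95 CPM in Hox-URE (138, 162 and 136 counts) and at 230, 284 and 338 CPM in URE-AML. All Hox-URE libraries were below, and all URE-AML libraries above, every Hox-WT library. The gene (ENSMUSG00000052435, chr14:54710360-54712174, minus strand) was thus 8.64-fold lower in Hox-URE relative to Hox-WT (log2 fold change -3.11 ± 0.19 SE; edgeR quasi-likelihood test, Benjamini-Hochberg adjusted p = 8.09e-07). In URE-AML it was 5.3-fold higher than in Hox-WT (2.41 ± 0.18, adjusted p = 1.53e-06) and 45.8-fold higher than in Hox-URE (5.52 ± 0.21, adjusted p = 1.73e-08). Of the neutrophil markers, 4 were tested: 1 of them, *S100a8*, was called lower in Hox-URE relative to Hox-WT and 3 were not called, whereas 4 were higher in URE-AML relative to Hox-WT and 3 relative to Hox-URE. Among them *Ly6g* and *Retnlg* passed the filter on low counts only through URE-AML, where they are high, so that those counts rest on *S100a8* and *Cxcr2*. The part of the markers in this result was not tested.

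*Cebpa*, upstream of *Cebpe* in granulocyte formation, showed no such contrast. Its levels were 296, 303 and 315 CPM in Hox-WT, 329, 362 and 324 CPM in Hox-URE and 361, 418 and 389 CPM in URE-AML. Hox-WT was lowest without overlap, whereas the other two lines overlapped. The gene (ENSMUSG00000034957, chr7:35119293-35121928, plus strand) was called in no comparison: a call needed both an adjusted p under 0.05 and a change of more than 1.5-fold. URE-AML exceeded Hox-WT by 1.28-fold (0.35 ± 0.09, adjusted p = 0.00606). Hox-URE differed from Hox-WT by 0.15 ± 0.09 (adjusted p = 0.178), and URE-AML from Hox-URE by 0.20 ± 0.09 (adjusted p = 0.0724).

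**Figure D1:**
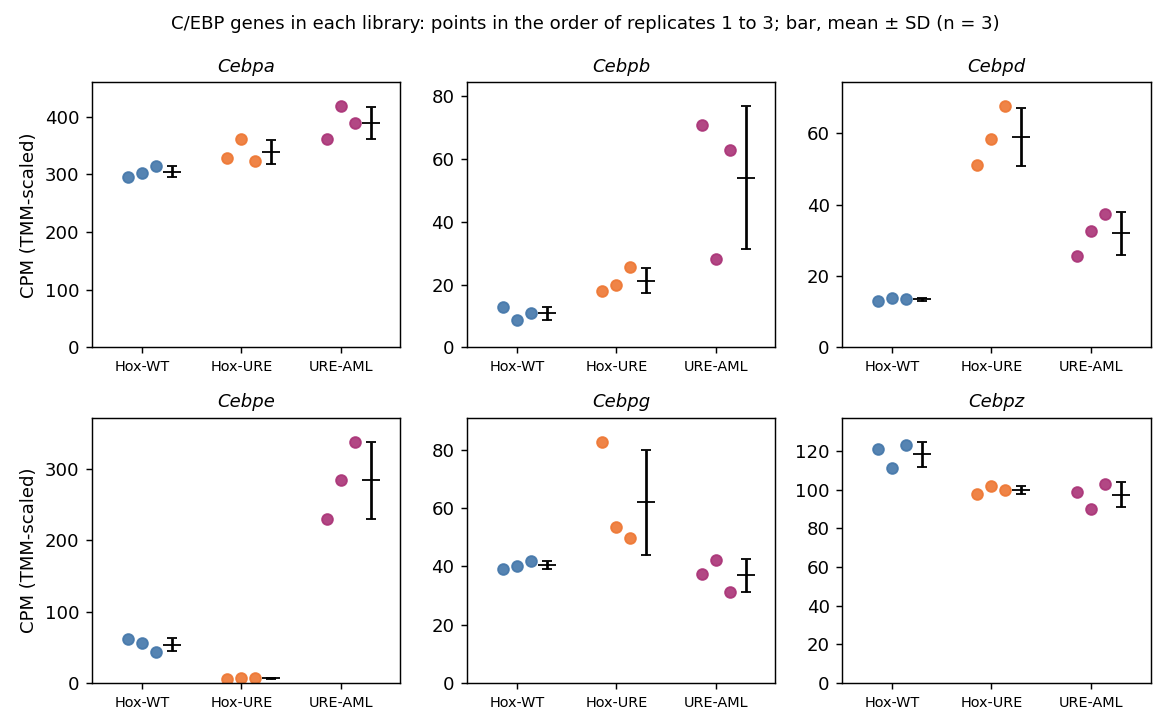
Level of each C/EBP gene in CPM (vertical axis, from 0, with its own scale for each gene) in the libraries of Hox-WT, Hox-URE and URE-AML, with points in the order of replicates 1 to 3 and the mean ± SD beside them. *Cebpe* lies between 5.03 and 6.95 CPM in Hox-URE and between 230 and 338 CPM in URE-AML, whereas *Cebpa* stays between 296 and 418 CPM in all 9 libraries.

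*Cebpb* and *Cebpd*, the members linked to inflammation, were both higher in the UREd/d lines than in Hox-WT, but peaked in different lines. *Cebpb* (ENSMUSG00000056501, chr2:167688915-167690418, plus strand) measured 13.0, 8.79 and 10.9 CPM in Hox-WT, 18.1, 20.0 and 25.7 CPM in Hox-URE, and 71.0, 28.2 and 63.0 CPM in URE-AML. The lines did not overlap, although URE-AML library 2 lay close to Hox-URE. The log2 differences were 0.96 ± 0.31 for Hox-URE (adjusted p = 0.0235) and 2.31 ± 0.31 for URE-AML (adjusted p = 0.000123) against Hox-WT, and 1.35 ± 0.30 between the UREd/d lines (adjusted p = 0.00326). The first of these calls was lost without Hox-WT library 2 (0.83, adjusted p = 0.086), without Hox-WT library 3 (0.95, adjusted p = 0.0638) or without Hox-URE library 3 (0.80, adjusted p = 0.0751).

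*Cebpd* (ENSMUSG00000071637, chr16:15887286-15891031, plus strand) was instead highest in Hox-URE, at 51.2, 58.4 and 67.5 CPM. Hox-WT held 12.9, 13.8 and 13.7 CPM and URE-AML 25.7, 32.7 and 37.5 CPM, again with no overlap between lines. Against Hox-WT the gene was higher by 2.13 ± 0.15 in Hox-URE (adjusted p = 2.25e-06) and by 1.24 ± 0.15 in URE-AML (adjusted p = 5.96e-05), and in URE-AML it was lower than in Hox-URE (-0.88 ± 0.15, adjusted p = 0.000532). Per kb of the longest annotated transcript, *Cebpb* exceeded *Cebpd* by a log2 ratio of 0.99 ± 0.33 (SD, n = 3) in Hox-WT and 1.98 ± 0.84 in URE-AML, whereas in Hox-URE the ratio was -0.16 ± 0.08. With the mean length of the annotated transcripts the ratios were 0.15 ± 0.33, 1.14 ± 0.84 and -1.01 ± 0.08 in the same order of lines, so that in Hox-WT the 2 genes then lay within the spread, while the differences between lines do not depend on the length. The antisense neighbours *Tmem189* and *Spidr* were called in no comparison, with log2 differences between -0.21 and 0.46.

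*Cebpg* (ENSMUSG00000056216, chr7:35046422-35056573, minus strand) was called higher in Hox-URE than in both other lines, calls that were lost without Hox-URE library 1. It stood at 39.1, 40.2 and 42.0 CPM in Hox-WT, at 82.8, 53.7 and 49.7 CPM in Hox-URE and at 37.3, 42.3 and 31.2 CPM in URE-AML. Hox-URE was above both other lines in every library, while Hox-WT and URE-AML overlapped. The difference from Hox-WT was 0.62 ± 0.19 (1.54-fold, adjusted p = 0.0176) and that of URE-AML from Hox-URE -0.75 ± 0.19 (adjusted p = 0.00598). Without Hox-URE library 1 they were 0.35 (adjusted p = 0.0412) and -0.49 (adjusted p = 0.00792), neither over the fold change of 1.5. URE-AML and Hox-WT differed by -0.13 (adjusted p = 0.576). The call against Hox-WT was also lost without Hox-WT library 1 (0.59, adjusted p = 0.0549) or Hox-WT library 2 (0.61, adjusted p = 0.0508).

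Hox-URE library 1 was also the highest library for *Atf4*, *Ddit3*, *Trib3* and *Asns*, genes of the stress response that C/EBPγ shares with ATF4. Some other genes of this response, described below, were not highest there. *Slc7a11* and *Psat1* were highest in Hox-WT library 1 (29.2 and 1010 CPM), and *Ddit4* in URE-AML library 2 (46.8 CPM). *Atf4* itself measured 394, 229 and 178 CPM in the Hox-URE libraries, and *Ddit3*, which encodes CHOP, a C/EBP relative that forms dimers with the family, measured 6.77, 2.86 and 4.65 CPM. *Trib3*, a pseudokinase gene induced by ATF4, measured 111, 27.2 and 16.7 CPM, and *Asns*, asparagine synthetase, 348, 184 and 178 CPM. In Hox-WT the same genes were at 97.7 to 115 CPM (*Atf4*), 1.12 to 2.32 CPM (*Ddit3*), 2.21 to 3.29 CPM (*Trib3*) and 141 to 164 CPM (*Asns*). The part of this library's state in the *Cebpg* result was not tested beyond leaving it out.

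**Figure D2:**
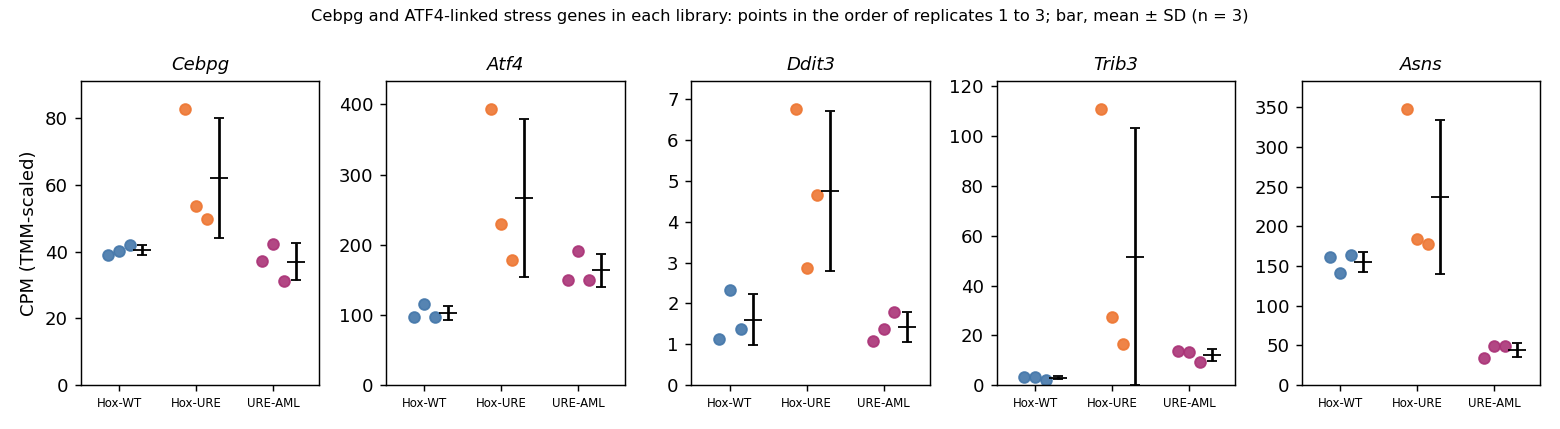
Levels in CPM (vertical axis, from 0, with its own scale for each gene) of *Cebpg* and of 4 genes of the ATF4 stress response, with the 3 libraries of each line as points in the order of replicates 1 to 3 and the mean ± SD beside them. Hox-URE library 1 is the highest of all 9 libraries in each panel, at 82.8 CPM for *Cebpg* and 111 CPM for *Trib3*.

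*Cebpz* (ENSMUSG00000024081, chr17:78919006-78937066, minus strand), whose coding sequence held no bZIP stretch, varied least. It measured 121, 111 and 123 CPM in Hox-WT, 97.8, 102 and 99.9 CPM in Hox-URE and 98.7, 90.2 and 103 CPM in URE-AML. Both UREd/d lines lay below Hox-WT without overlap, by -0.24 (adjusted p = 0.031) and -0.28 (adjusted p = 0.0143), and neither difference was over the fold change of 1.5. Among the subunits of NF-Y, another complex that binds CCAAT sequences, *Nfya* was lower in Hox-URE (-0.98 ± 0.10, adjusted p = 2.37e-05) and in URE-AML (-0.96 ± 0.10, adjusted p = 1.85e-05) than in Hox-WT, while *Nfyb* was called in no comparison. *Nfyc* was higher in URE-AML relative to Hox-URE (0.89 ± 0.10, adjusted p = 3.28e-05).

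In total, Hox-URE against Hox-WT gave 3 members higher and 1 lower of 6, against a background of 37.2% called among the 13082 genes tested (21.3% higher, 15.9% lower). URE-AML against Hox-WT gave 3 higher and 0 lower, with 43.2% of all genes called (23% higher and 20.2% lower). URE-AML against Hox-URE gave 2 higher and 2 lower, with 42.7% called (20.3% higher and 22.4% lower). With so many genes called, these counts alone do not set the family apart. The same shares are the background for the counts of markers and of the gene lists. Lines not overlapping in any library, as described for single members above, were also common, at 60.3%, 67.6% and 62.8% of tested genes in the same order of comparisons.

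**Figure D3:**
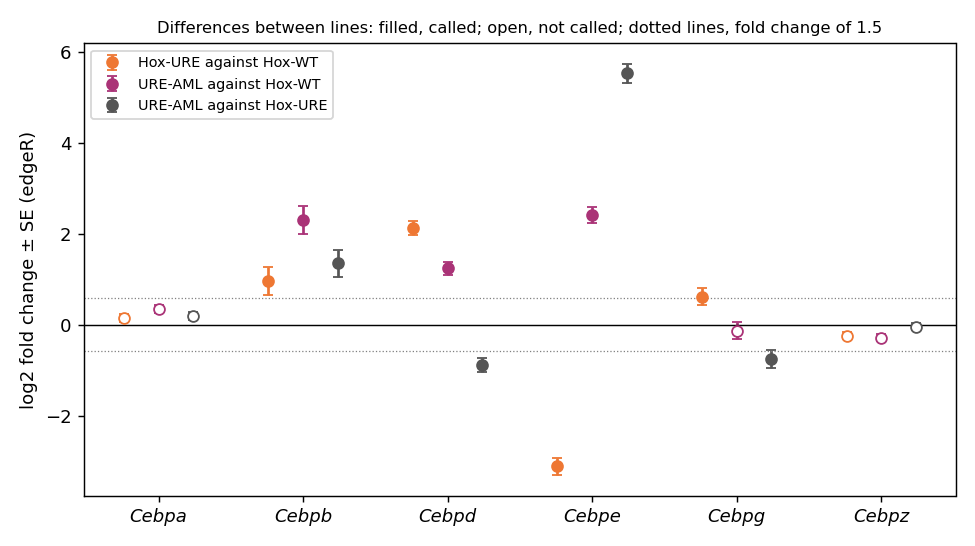
Log2 fold change ± SE (vertical axis) of each C/EBP gene in the 3 comparisons between lines, with filled points for called genes, open points for genes not called and dotted lines at a fold change of 1.5. *Cebpe* has the most extreme values, -3.11 and 5.52, and *Cebpa* and *Cebpz* lie inside the dotted lines in all 3 comparisons.

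The make-up of the family was compared per kb of the longest transcript, since counts of different genes scale with length. *Cebpa* was the leading bZIP member in both Hox lines, at 116 ± 3.73 CPM per kb in Hox-WT and 129 ± 7.76 in Hox-URE (SD, n = 3), higher than 95.4% and 95.6% of tested genes. In Hox-WT *Cebpe* came second (43.2 ± 7.10), followed by *Cebpg* (8.59 ± 0.315) and *Cebpb* (7.25 ± 1.42), which overlapped, and *Cebpd* (3.60 ± 0.131). In Hox-URE *Cebpd* (15.8 ± 2.18), *Cebpb* (14.1 ± 2.63) and *Cebpg* (13.2 ± 3.84) followed *Cebpa* with ranges that overlapped, although *Cebpd* was above *Cebpb* in each library, and *Cebpe* was last (5.02 ± 0.845). URE-AML was the only line led by *Cebpe*, at 229 ± 43.8 CPM per kb, above *Cebpa* at 148 ± 11.0 in all 3 libraries. *Cebpb* followed at 35.9 ± 15.1, and *Cebpd* (8.54 ± 1.58) and *Cebpg* (7.84 ± 1.18) overlapped.

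The order of the lower members depends on the transcript assumed. The longest transcript of *Cebpg* has 4709 bases and its annotated transcripts 1908 on average, and those of *Cebpd* 3746 and 2088. Per kb of the mean length, *Cebpg* stood at 21.2 ± 0.776 CPM per kb in Hox-WT, above *Cebpb* (7.25 ± 1.42) and *Cebpd* (6.46 ± 0.234), which then overlapped. In Hox-URE *Cebpg* (32.5 ± 9.47) and *Cebpd* (28.3 ± 3.91) overlapped and *Cebpb* (14.1 ± 2.63) was below both. In URE-AML *Cebpg* (19.4 ± 2.91) overlapped with *Cebpb* and *Cebpd*. *Cebpa* still led both Hox lines and *Cebpe* still led URE-AML and was last in Hox-URE. The summed level of the 5 genes per kb of the mean length was 205 ± 2.62 in Hox-WT and 221 ± 4.76 in Hox-URE, without overlap.

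As a share of the summed level of the 5 bZIP genes, *Cebpe* made up 24.1% ± 3.54 (SD, n = 3) of Hox-WT, 2.83% ± 0.443 of Hox-URE and 53.0% ± 4.45 of URE-AML. The share of *Cebpa* was 65.0% ± 3.37, 72.8% ± 2.23 and 34.7% ± 3.41. Per kb of the mean length it was 62.0% ± 2.78, 63.8% ± 2.65 and 35.4% ± 3.20, so that the Hox lines then differed by less than the spread. The log2 ratio of *Cebpe* to *Cebpa* per kb was -1.44 ± 0.29 for Hox-WT, -4.69 ± 0.25 for Hox-URE and 0.61 ± 0.24 for URE-AML, with no overlap between lines. The sum itself stood at 179 ± 3.52 CPM per kb for Hox-WT, 177 ± 5.69 for Hox-URE and 429 ± 47.6 for URE-AML.

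**Figure D4:**
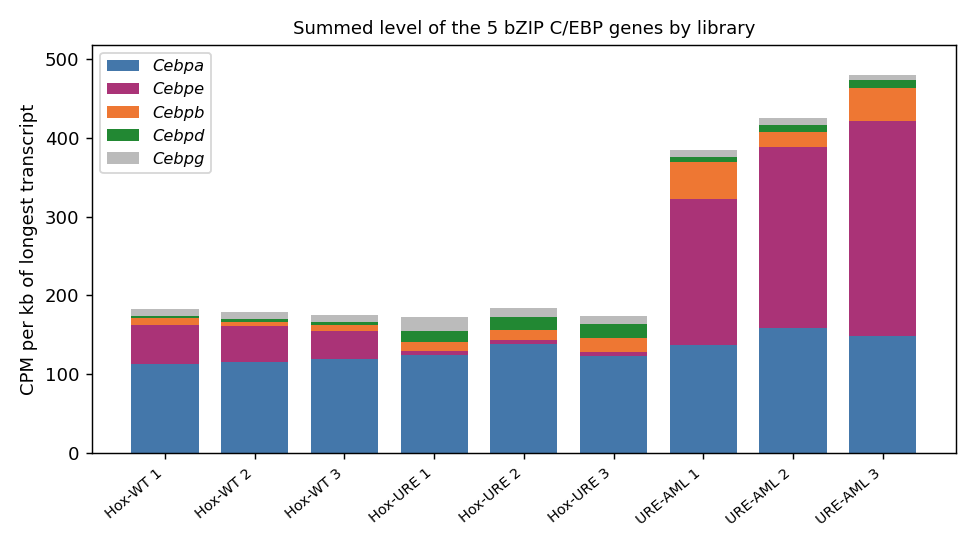
Stacked levels of the 5 bZIP C/EBP genes in CPM per kb of the longest transcript (vertical axis, from 0) in each of the 9 libraries. The stacks of the Hox lines reach 173 to 183 and are mostly *Cebpa*, and those of URE-AML reach 384 to 479, with *Cebpe* making up 48.1% to 56.9%.

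Genes that pair with, regulate or degrade C/EBP proteins changed in both directions. Of 19 such genes in the table, 17 were tested. The other two were *Runx1t1*, with 0 counts in every library, and *Atf3*, a bZIP partner, with 0, 9 and 0 counts in Hox-WT, 82, 14 and 8 in Hox-URE and 7, 4 and 3 in URE-AML. Hox-URE differed from Hox-WT by 7 higher and 5 lower, URE-AML from Hox-WT by 5 higher and 5 lower, and URE-AML from Hox-URE by 2 higher and 7 lower. Both numbers higher in URE-AML include *Lef1*, which passed the filter only through that line. Of the 17, 70.6%, 58.8% and 52.9% were called in this order of comparisons, against 37.2%, 43.2% and 42.7% of all genes tested. The median log2 differences were 0.00, -0.35 and -0.20, with 0.00 over all genes tested in each comparison. Among the Tribbles pseudokinases, TRIB1 and TRIB2 bring C/EBPα to the ubiquitin ligase COP1. *Trib1* stood at 14.4 to 19.1 CPM in Hox-WT, 66.6 to 76.8 CPM in Hox-URE and 53.9 to 73.7 CPM in URE-AML. It was higher in Hox-URE (2.07 ± 0.15, adjusted p = 2.04e-06) and in URE-AML (1.87 ± 0.15, adjusted p = 2.37e-06) than in Hox-WT. *Trib2* went the other way, with 33.8, 38.5 and 34.4 CPM in Hox-WT, 17.2, 19.5 and 18.1 CPM in Hox-URE and 9, 4 and 0 counts in URE-AML. It was lower than in Hox-WT in Hox-URE (-0.96 ± 0.23, adjusted p = 0.00567) and in URE-AML (-7.53 ± 0.38, adjusted p = 8.19e-08, and -8.54 without URE-AML library 1).

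*Cop1* was lower in Hox-URE relative to Hox-WT (-0.71 ± 0.11, adjusted p = 0.000462), and *Fbxw7*, the substrate receptor of another ubiquitin ligase that acts on C/EBP proteins, was lower in both UREd/d lines (-0.92 ± 0.18 and -0.88 ± 0.18, adjusted p = 0.00191 and 0.00205). *Calr* and *Celf1*, which encode proteins known to bind C/EBP transcripts, were higher in Hox-URE (0.79 ± 0.20 and 0.78 ± 0.16, adjusted p = 0.00842 and 0.00204). *Pcbp2*, whose product can block translation of the *Cebpa* transcript, was called in no comparison, and its log2 differences were -0.03, -0.03 and 0.01. Of the partners in dimers, *Atf4* and *Ddit3* were higher in Hox-URE relative to Hox-WT (1.37 ± 0.25 and 1.56 ± 0.39, adjusted p = 0.00108 and 0.00671).

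Of the transcription factor genes tied to *Cebpa*, *Sox4*, which C/EBPα represses, stood at 118 to 137 CPM in Hox-WT, 39.1 to 55.0 CPM in Hox-URE and 6.80 to 12.4 CPM in URE-AML, without overlap. *Gata2* was higher in Hox-URE (0.99 ± 0.20, adjusted p = 0.00226) and lower in URE-AML (-3.59 ± 0.23, adjusted p = 5.2e-07) than in Hox-WT. It is also one of the basophil and mast cell markers given above. With it included, 4 of the 5 tested were higher and 0 lower in Hox-URE, while 1 was higher (*Mcpt8*) and 3 were lower in URE-AML, each against Hox-WT. *Prss34* among them passed the filter only through Hox-URE, and their part was not tested. *Lef1*, an activator of *Cebpa*, had 0 counts in all libraries of both Hox lines and 149, 93 and 123 counts in URE-AML, at least 48.6-fold higher than in Hox-WT. It was tested only because it passed the filter through URE-AML. *Runx1* was just past the threshold in URE-AML against Hox-WT (0.69 ± 0.27, adjusted p = 0.0495). Its call was lost without Hox-WT library 1 or 3, Hox-URE library 2 or any URE-AML library (adjusted p = 0.0676 to 0.159). The number of partners and regulators called higher there was 2 without Hox-WT library 3 and 3 without Hox-WT library 1, Hox-URE library 2 or any URE-AML library. *Stat3* and *Creb1* were called in no comparison.

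Genes known to be linked to C/EBP factors were grouped by the member. Of 15 genes linked to C/EBPε, many of them encoding granule proteins, 12 were tested, of which 1 was higher and 8 were lower in Hox-URE relative to Hox-WT. In URE-AML 9 were higher and 1 lower than in Hox-WT, and 12 were higher and 0 lower than in Hox-URE. The median log2 differences, with genes near 0 in a line set to their bounds, were -2.63, 4.29 and 6.81 in the same order of comparisons. *Camp*, the cathelicidin gene, had 2, 18 and 35 counts in Hox-WT, 0, 0 and 1 in Hox-URE and 11706, 10358 and 22234 in URE-AML, at least 4960-fold higher than in Hox-URE. *Cd177*, a neutrophil surface protein gene, was at 236, 167 and 459 CPM in URE-AML and at 0.075 to 0.726 CPM in Hox-WT. *Fcnb*, ficolin B, had 80, 201 and 352 counts in Hox-WT, 0, 4 and 3 in Hox-URE and 190, 110 and 515 in URE-AML, and was lower in Hox-URE relative to Hox-WT (-6.16 ± 0.96, adjusted p = 0.000415, and -5.51 without Hox-URE library 1 or -6.75 without Hox-URE library 2). *Ltb4r1*, a leukotriene receptor gene, followed the order of *Cebpe*, with 11.9 ± 2.53 CPM in Hox-WT, 0.511 ± 0.111 CPM in Hox-URE, and 121 ± 42.1 CPM in URE-AML.

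The genes called in the direction opposite to *Cebpe* were *Lcn2* and *Cybb*, each in 1 comparison, while *Cd177*, *Stfa2* and *Stfa3* were not called for Hox-URE against Hox-WT, nor were *Fcnb* (0.65 ± 0.59, adjusted p = 0.378) and *Mmp8* for URE-AML against Hox-WT. *Lcn2*, lipocalin 2, rose where *Cebpe* fell: it stood at 6.45, 8.61 and 9.13 CPM in Hox-WT and at 174, 114 and 110 CPM in Hox-URE (4.04 ± 0.23, adjusted p = 4.16e-07), and at 363, 263 and 286 CPM in URE-AML. It is also in the list linked to C/EBPβ and C/EBPδ. *Cybb*, an NADPH oxidase subunit gene, had 21, 16 and 30 counts in Hox-WT, 0 in each Hox-URE library and 1, 1 and 2 in URE-AML. It was the gene lower for URE-AML against Hox-WT, where 2 genes were called lower without Hox-WT library 1, URE-AML library 1 or any Hox-URE library. It also counts among the 12 genes called higher in URE-AML relative to Hox-URE although no library of either line exceeded 3 counts. Of the 12 genes tested, 7 reached the minimum of the filter in under 3 libraries outside URE-AML and passed through that line, and *Cybb* passed through Hox-WT, so that the counts depend on the filter and give no support of their own. With at least 10 counts required in every library, only *Lcn2* and *Ltb4r1* could be tested. Of these, 1 gene was called lower for Hox-URE against Hox-WT, and 2 were called higher for URE-AML in each of its comparisons. With only the 6 libraries of the Hox lines, 4 were called lower in Hox-URE. The counts of the neutrophil markers are given above with *Cebpe*, and their part was not tested.

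Of 13 genes linked to C/EBPα in early myeloid cells, 1 was higher and 8 were lower in Hox-URE relative to Hox-WT, while *Cebpa* was not called. Their median log2 difference was -2.18 in this comparison, and URE-AML had medians of 0.28 over Hox-WT and 2.53 over Hox-URE, with bounds used as before. Among the 8 lower, *Csf1r* passed the filter only through Hox-WT. The 5 progenitor markers moved with the list for Hox-URE against Hox-WT, with 0 higher, 5 lower and a median of -2.02. The call of *Cd34* (-0.63, adjusted p = 0.0224) was lost without Hox-WT library 2 (adjusted p = 0.0598), Hox-WT library 3 (adjusted p = 0.0642) or Hox-URE library 1 (-0.42). Both lists hold *Mpo* and *Elane*, and the part of the markers was not tested. *Mpo*, myeloperoxidase, stood at 3290, 5950 and 5880 CPM in Hox-WT, 10.2, 2.82 and 2.15 CPM in Hox-URE and 192, 212 and 174 CPM in URE-AML. *Prtn3*, proteinase 3, was lower in Hox-URE (-2.22 ± 0.17, adjusted p = 3.22e-06) and higher in URE-AML (0.88 ± 0.16, adjusted p = 0.000979) than in Hox-WT. The interleukin-6 receptor gene *Il6ra* had 1, 0 and 1 counts in Hox-URE against 101, 122 and 106 in Hox-WT, at least 30.5-fold lower.

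*Id2*, which encodes an inhibitor of helix-loop-helix factors, was the gene higher in Hox-URE (3.61 ± 0.23, adjusted p = 9.66e-07). Without URE-AML library 1, 3 were called higher there, and without URE-AML library 3 or Hox-URE library 1, 2 were. The same list gave 6 higher and 6 lower for URE-AML against Hox-WT, and 10 higher and 1 lower against Hox-URE. *Klf5*, among those higher in both, passed the filter only through URE-AML, and *Csf1r*, among the 6 lower, only through Hox-WT. The list's share called was 69.2% for Hox-URE against Hox-WT, 92.3% for URE-AML against Hox-WT and 84.6% for URE-AML against Hox-URE. Over all genes tested these shares were 37.2%, 43.2% and 42.7%. *Elane*, neutrophil elastase, reached 4290, 7130 and 10500 CPM in URE-AML, from 112 to 234 CPM in Hox-WT and 8.28 to 10.7 CPM in Hox-URE. *Klf5* had 0 counts in both Hox lines and 177, 143 and 160 counts in URE-AML, a level at least 64.4-fold that of Hox-WT, whereas *Csf2ra*, a GM-CSF receptor subunit gene, was lower than in Hox-WT (-1.19 ± 0.25, adjusted p = 0.00215). *Ms4a3* was the gene lower in URE-AML relative to Hox-URE (-1.91 ± 0.41, adjusted p = 0.00232).

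Of 16 genes linked to C/EBPβ and C/EBPδ in inflammation, 11 were tested. Hox-URE against Hox-WT gave 4 higher and 4 lower, URE-AML against Hox-WT gave 9 higher and 2 lower, and URE-AML against Hox-URE gave 8 higher and 2 lower. Of the 11, 72.7%, 100% and 90.9% were called in this order, against 37.2%, 43.2% and 42.7% of all genes tested. The numbers higher in URE-AML include *Nos2* and *Tnf*, which passed the filter only through that line, and with at least 10 counts in every library they were 5 and 4. The medians with bounds were -0.18, 3.84 and 2.48, and the first of them was 0.35 with fitted values in place of bounds. *Socs3*, a feedback inhibitor of cytokine signalling, ran in the order of *Cebpb*, with 11.1 to 12.2 CPM in Hox-WT, 73.5 to 114 CPM in Hox-URE and 149 to 184 CPM in URE-AML. *Ccl3*, a chemokine gene, was higher in both UREd/d lines than in Hox-WT (2.76 ± 0.47 and 2.62 ± 0.47, adjusted p = 0.000758 and 0.000821). *Ptgs2*, cyclooxygenase 2, was highest in Hox-URE, as *Cebpd* was, but lowest in URE-AML: it differed from Hox-WT by 2.19 ± 0.45 in the former (adjusted p = 0.00229, and 1.56 without Hox-URE library 1) and by -3.39 ± 0.60 in the latter (adjusted p = 0.000695).

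The genes of this list that were lower in Hox-URE included *S100a8* and *S100a9*, which encode the subunits of calprotectin, and *Cd14*. *S100a8* had 789, 1037 and 1407 counts in Hox-WT, 0, 4 and 1 in Hox-URE and 57044, 58049 and 77098 in URE-AML. Of the neutrophil markers, which include *S100a8*, 4 of 4 tested were higher in URE-AML relative to Hox-WT and 3 relative to Hox-URE, with the limit given above for *Ly6g* and *Retnlg*, *Cd14* is also a monocyte marker, and the part of the markers in this list was not tested. *Cd14* stood at 47.3 to 84.9 CPM in Hox-WT, 5.10 to 5.46 CPM in Hox-URE and 107 to 304 CPM in URE-AML. *Hp*, haptoglobin, was not called in Hox-URE (0.35 ± 0.29, adjusted p = 0.34) and reached 366 to 452 CPM in URE-AML, against 4.24 to 8.54 CPM in Hox-WT. *Il6* was lower in URE-AML relative to Hox-WT (-5.45 ± 0.47, adjusted p = 4.42e-06, and -6.57 without URE-AML library 3).

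**Figure D5:**
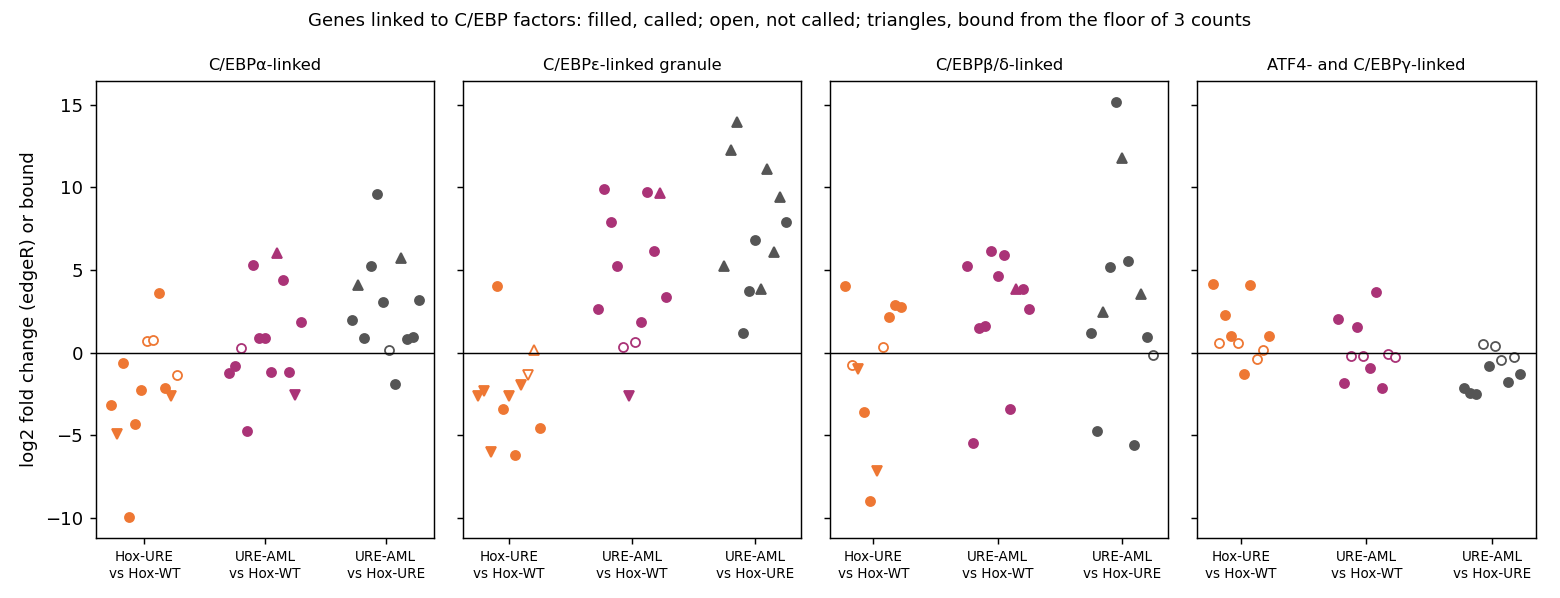
Log2 fold change (vertical axis) of the tested genes linked to each C/EBP factor in the 3 comparisons, with 1 point per gene, filled where called; triangles mark bounds computed from the floor of 3 counts, and genes at or under that floor in both lines are left out. In the second panel, 8 granule genes were called lower in Hox-URE relative to Hox-WT, and all points for URE-AML against Hox-URE lie above 0.

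Of 10 genes linked to ATF4 and C/EBPγ, 5 were higher and 1 lower in Hox-URE relative to Hox-WT, 3 were higher and 3 lower in URE-AML relative to Hox-WT, and 0 were higher and 6 lower in URE-AML relative to Hox-URE. Their medians were 0.81, -0.20 and -1.01. In each comparison 60.0% of the 10 were called, against 37.2%, 43.2% and 42.7% of all genes tested. *Slc3a2*, an amino acid transporter subunit gene, was higher in Hox-URE (1.02 ± 0.16, adjusted p = 0.000413), as were *Ddit4*, an inhibitor of mTORC1 signalling (1.03 ± 0.20, adjusted p = 0.00162), and *Trib3* (4.16 ± 0.66, adjusted p = 0.000451), which is also among the regulators. The value of *Trib3* rested in part on Hox-URE library 1, which stood apart in this gene as described above, and was 2.91 without it (adjusted p = 1.61e-05). *Slc7a11*, the cystine transporter gene, was lower (-1.31 ± 0.23, adjusted p = 0.000869). Within Hox-URE, library 1 was the highest for each of the 10 genes, with *Slc3a2* at 678, 423 and 454 CPM and *Ddit4* at 41.0, 23.8 and 26.0 CPM. *Psat1*, of serine synthesis, was lower in URE-AML relative to Hox-WT (-2.12 ± 0.12, adjusted p = 1.61e-07), and so was *Asns* (-1.82 ± 0.26, adjusted p = 0.000159). *Cth*, cystathionine gamma-lyase, had 13, 0 and 0 counts in Hox-WT, 185, 24 and 13 in Hox-URE and 44, 50 and 49 in URE-AML. It was 1 of the 5 higher in Hox-URE (4.12 ± 1.19, adjusted p = 0.0144), a call lost without Hox-URE library 1 (2.36, adjusted p = 0.0729). Its call for URE-AML against Hox-WT (3.68 ± 1.20, adjusted p = 0.0228) was lost without Hox-WT library 2 or 3 (adjusted p = 0.0706) or URE-AML library 2 (adjusted p = 0.0514), and the difference was 8.69 without Hox-WT library 1, the only one of its line with counts. Without Hox-WT library 3, 1 gene in place of 3 was higher in URE-AML than in Hox-WT, and without Hox-URE library 1, 1 in place of 0 was higher for URE-AML against Hox-URE.

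The genes whose pattern was nearest to each member were sought among 8438 protein-coding genes, by the root mean square difference of log2 CPM over the 9 libraries after centring each gene. The 9 libraries fall into 3 lines, so that the measure mostly compares line means, and the values are given as a description. *Hsd11b1* (0.37), *Elovl7* (0.44) and *Sort1* (0.45) were nearest to *Cebpe*. *Sort1*, which encodes the sorting receptor sortilin, stood at 132 ± 8.68 CPM in Hox-WT, 7.96 ± 2.47 CPM in Hox-URE, and 490 ± 64.4 CPM in URE-AML. *Vgll4*, *Rhbdf2* and *Anxa4* were nearest to *Cebpb* (0.32 to 0.35), and *Phyh*, *Dnajb9* and *Fahd2a* to *Cebpd* (0.16 to 0.17).

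For *Cebpg* the nearest were *Sesn2*, which is also in the stress list, and the tRNA synthetase genes *Nars* and *Gars*, each at 0.14. *Gars* measured 360 ± 33.7 CPM in Hox-WT, 499 ± 158 CPM in Hox-URE, and 327 ± 15.2 CPM in URE-AML. *Casp8* and *Ncapd3* were nearest to *Cebpa*, each at 0.06, and *Ino80b*, *Actr8* and *Vps72* were nearest to *Cebpz* (0.02 to 0.05).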

How the data were processed

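Stranded poly-A libraries of 3 mouse cell lines, 3 per line, were sequenced by the authors, who quantified reads with salmon and summed them to genes with tximport. The deposited values are gene counts, estimated by the authors, rounded and without library scaling, and the labels name GRCm38. The versions, the transcriptome release, the strand setting and any scaling for transcript length are not given in the sources used here, so that a change in transcript use could move a count.

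Lines were taken from the sample labels. Annotation came from GENCODE M21, in which 54094 of 54347 identifiers were found. Genes were filtered with filterByExpr (minimum count 10, leaving 13082) and fitted in edgeR 4.0.16 (R 4.3.3), with all 9 libraries in a single quasi-likelihood model whose only term was the line. P-values are two-sided and adjusted by Benjamini-Hochberg over all genes tested. A called gene had an adjusted p under 0.05 and changed more than 1.5-fold. SE was derived from the log2 fold change and its F statistic. CPM use library totals and TMM factors, and centred patterns use log2 CPM with a prior count of 2 and genes with a mean of at least 10 CPM. Where no library of a line exceeded 3 counts, the fold is a bound, computed with 3 counts in each of its libraries. The code was tested on simulated data.

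The members and the gene lists were chosen with earlier results of these data known. Named genes were all members, *Spi1*, all partners, regulators and NF-Y subunits, up to 3 called genes with the smallest p per direction and comparison in each other list, the 3 genes nearest in pattern to each member, and the nearest tested gene on either side of it. Of the genes nearest in pattern, 1 is not reported here. Markers were *Kit*, *Myb*, *Cd34*, *Mpo* and *Elane* (progenitor), *Ly6g*, *Cxcr2*, *Mmp9*, *Retnlg* and *S100a8* (neutrophil) and *Prss34*, *Mcpt8*, *Cpa3*, *Fcer1a*, *Gata2* and *Ms4a2* (basophil and mast cell). Markers of monocytes, erythroid cells, megakaryocytes and lymphoid cells were also summed. Alternatives were other scalings, filters, fold thresholds and transcript lengths, fits of 6 libraries, DESeq2 1.42.0, a replicate block, and leaving out each library. Figures were drawn with matplotlib 3.10.9.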

Additional observations from a re-analysis of the deposited data

How the results depend on the processing

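Of 19 alternatives in each comparison, none turned the direction of a called member. *Cebpe* and *Cebpd* were called in all 19 in all 3 comparisons, as was *Cebpb* in URE-AML against either Hox line. The log2 difference of *Cebpb* between Hox-URE and Hox-WT was 0.80 to 1.11 when a library was left out, and it was not called in a test against a fold change of 1.5 (0.96, adjusted p = 0.151). That of *Cebpg* was 0.35 to 0.74, and it was not called with scaling by library size only (0.52) or when tested against a fold change of 1.5 (0.62, adjusted p = 0.508). In URE-AML against Hox-URE, *Cebpg* ranged from -0.89 to -0.49 and was not called in that test (-0.75, adjusted p = 0.192). With no fold change threshold, *Cebpz* in Hox-URE (-0.24), *Cebpz* in URE-AML (-0.28) and *Cebpa* in URE-AML (0.35), each against Hox-WT, were called as well.

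Of the numbers of members called, the 3 higher in Hox-URE against Hox-WT became 1 when tested against a fold change of 1.5 and 1 to 3 when a library was left out (1 without Hox-WT replicate 2), and the 2 lower in URE-AML against Hox-URE became 1 in that test and 1 to 2 (1 without Hox-URE replicate 1). With no fold change threshold, 2 members were called lower in Hox-URE and 1 was in URE-AML, both against Hox-WT. CPM by library size only put *Cebpz* at 95.0 CPM in Hox-URE, and with the mean transcript length the shares of *Cebpa* and *Cebpe* in Hox-URE were 63.8% and 2.27%. In CPM per kb of that length, *Cebpa* stood at 127 (Hox-WT), 141 (Hox-URE) and 163 (URE-AML), and in this order *Cebpd* at 6.46, 28.3 and 15.3, *Cebpg* at 21.2, 32.5 and 19.4, and the sum of the 5 genes at 205 and 221 in the Hox lines, and the log2 ratio of *Cebpb* to *Cebpd* was 0.15, -1.01 and 1.14. Scaling by library size only moved the median log2 difference of all genes by -0.08 in Hox-URE against Hox-WT and by 0.11 in URE-AML against Hox-URE, and gave 2502 genes higher and 2545 lower in the former (2789 and 2084 with TMM) and 3166 and 2605 in the latter (2662 and 2929).

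Counts for the gene lists moved most with the filter of at least 10 counts in every library, which tests fewer genes. For the 3 comparisons in the order Hox-URE against Hox-WT, URE-AML against Hox-WT and URE-AML against Hox-URE, the granule genes then gave 1 lower, 2 higher and 0 lower, and 2 higher. The inflammatory genes gave 1 lower, 5 higher and 0 lower, and 4 higher and 0 lower, the partners and regulators 3 lower, 3 lower, and 0 higher, and the C/EBPα-linked genes 2 higher in the first. The 1 C/EBPα-linked gene higher in Hox-URE against Hox-WT became 2 with DESeq2, 3 with no filter, 3 with only the 6 libraries compared, and 1 to 3 when a library was left out. The 8 granule genes lower in Hox-URE became 4 with only those 6 libraries, and the 1 lower in URE-AML against Hox-WT became 2 with no filter and 1 to 2 when a library was left out. Partners and regulators higher in URE-AML against Hox-WT numbered 5, against 3 with upper-quartile factors, 3 when tested against a fold change of 1.5 and 2 to 5 when a library was left out, and those lower in Hox-URE numbered 2 in that test. With no fold change threshold, 8 partners and regulators were lower in URE-AML relative to Hox-WT, the NF-Y subunits gave 1 higher and 2 lower in Hox-URE and 1 higher in URE-AML, and the stress genes 2 lower for Hox-URE against Hox-WT and 1 higher for URE-AML against Hox-URE. That last number was also 1 with library size only and 0 to 1 when a library was left out, and the stress genes higher in URE-AML against Hox-WT numbered 1 to 3. The causes of the other moves were not tested.

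Libraries share numbers across lines, but the deviations of same-numbered libraries from their line means correlated at r of 0.01 to 0.271, over 0.1 in only 2 of 9 pairs, so that the numbers were not taken as a pairing. As a hint from the data, the best match of a library in another line had its own number in 17 of 18 cases. A replicate block changed no member's call, gave 2802 genes higher and 2106 lower for Hox-URE against Hox-WT, and made 2 C/EBPα-linked genes higher there.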

Other observations

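The genes beside the members on their chromosomes included some that ran with the member and some that did not. *Slc7a8*, an amino acid transporter gene 10035 bases from *Cebpe*, was higher in Hox-URE relative to Hox-WT (3.77 ± 0.20, edgeR adjusted p = 2.33e-07), where *Cebpe* was lower, and lower in URE-AML relative to Hox-URE (-3.15 ± 0.19, adjusted p = 3.72e-07), where *Cebpe* was higher, but higher in URE-AML relative to Hox-WT (0.62 ± 0.18, adjusted p = 0.0131), as *Cebpe* was. On the other side, *1700123O20Rik*, 19619 bases away, was higher in URE-AML relative to Hox-WT (1.34 ± 0.17, adjusted p = 7.2e-05) and to Hox-URE (1.00 ± 0.17, adjusted p = 0.000527), as *Cebpe* was, and was not called in Hox-URE against Hox-WT (0.34 ± 0.17, adjusted p = 0.11).

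*Pepd*, a peptidase gene 1714 bases from *Cebpg* on the opposite strand, had differences close to those of *Cebpg*: 0.76 ± 0.09 in Hox-URE against Hox-WT (adjusted p = 5.3e-05), -0.11 ± 0.09 for URE-AML against Hox-WT (adjusted p = 0.291) and -0.88 ± 0.09 in URE-AML against Hox-URE (adjusted p = 1.53e-05). *Cebpa*, the nearest tested gene on the other side of *Cebpg*, 62720 bases away, was called in none of the 3. Beyond *Cebpa*, *Gpatch1*, 154608 bases away, was not called either. *Gm14321*, 87049 bases from *Cebpb*, was higher in Hox-URE relative to Hox-WT (2.09 ± 0.45, adjusted p = 0.00294) and not called in URE-AML against Hox-WT (0.28 ± 0.50, adjusted p = 0.663), where *Cebpb* was highest. *Mzt2*, 23917 bases from *Cebpd*, was called in none of the 3. Of the genes beside *Cebpz*, *Cebpzos* was called in none, and *Ndufaf7*, 70 bases away, was lower in URE-AML relative to Hox-URE (-0.82 ± 0.14, adjusted p = 0.000698). Over the chromosomes of the members, the median log2 difference of all tested genes lay between -0.07 and 0.08.

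Of the other marker lists, 5 monocyte markers summed to 68.0 to 106 CPM in Hox-WT, 846 to 944 CPM in Hox-URE, and 121 to 324 CPM in URE-AML. In Hox-URE the sum was almost wholly *Ccr2* (840 to 939 CPM), the 1 marker called higher there relative to Hox-WT, while the other 4, *Csf1r*, *Cd14*, *Ly86* and *Irf8*, were called lower, of which *Csf1r* and *Ly86* passed the filter only through Hox-WT. The summed levels of the markers of erythroid cells reached at most 17.0 CPM, of megakaryocytes 46.4 CPM and of lymphoid cells 3.25 CPM in any library.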
